A study of Mus musculus with 12 samples.

Results

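The surface proteins by which mesenchymal stromal cells (MSCs) are recognized in culture are described here at the level of their mRNA. The set holds 9 genes, Nt5e (CD73), Thy1 (CD90), Ly6a (Sca-1), Eng (CD105), Cd44, Alcam (CD166), Mcam (CD146), Pdgfra (CD140a) and Pdgfrb (CD140b). They were chosen by name as rows of the count table, and all 9 were found among its 55487 genes. RNA was sequenced from primary bone marrow MSCs of wild-type C57BL/6 mice in 3 groups of 4 samples. The control MSCs (Negative) were untreated. The A1 MSCs had received 50 μM of A1, a molecule in which cholic acid is joined to a nuclear localization peptide of hnRNPA1, for 6 h. The A1-OVA MSCs had received 50 μM of A1 together with 1 mg/ml of chicken ovalbumin (OVA) for 6 h. All 3 groups were plastic-adherent cultures from the femurs of young adult female mice, expanded over several passages, and the treatments were given near confluency. Whether the 4 samples of a group came from separate cultures or animals is not given in the sources used here, so that the p-values measure the spread between these samples, which may be technical.

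MSCs carry no single defining protein and are recognized by a panel of surface antigens together with the absence of blood cell antigens. CD73 is an ecto-enzyme that turns extracellular AMP into adenosine, and CD90 and Sca-1 are small proteins held in the membrane by a glycosylphosphatidylinositol (GPI) anchor, as CD73 is. Endoglin is a co-receptor for ligands of the TGF-β and BMP family. CD44 binds the matrix polysaccharide hyaluronan, CD166 and CD146 are adhesion molecules of the immunoglobulin superfamily, and CD140a and CD140b are the α and β receptor tyrosine kinases for platelet-derived growth factor (PDGF). Sca-1 with PDGFRα marks immature stromal cells of mouse marrow, and CD146 is also a marker of pericytes and endothelium.

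The samples held between 13702348 and 16881995 counts. By the markers of other cell types the cultures contained very little RNA of blood cells. The pan-leukocyte gene Ptprc (CD45) had 0 to 4 counts in every sample, Cd34 had 1 to 3 and Itgam 0 to 1. Cd14 had 120 to 173, however, Cd74 had 7 to 26 and Kit 0 to 18. The 9 endothelial, 5 erythroid and 6 measured T and NK cell genes each summed to less than 2 CPM in every sample, where CPM are counts relative to the scaled library total. The macrophage genes summed to 3.45 to 5.67 CPM and the granulocyte genes to 1.52 to 3.07 over all samples. Mesenchymal genes were abundant, with 39027 to 58072 counts of Col1a1 and 5179 to 6895 of Prrx1, but the matrix proteoglycan genes Lum and Dcn had 0 to 1. Their list of 11 summed to 15206 to 17462 CPM in control, 16756 to 19184 in A1 and 17290 to 19282 in A1-OVA MSCs. The list did not move as 1. By the test described below, 4 of the 9 tested were called higher with A1, 2 lower and 3 not. Over all genes 31.7% were called higher and 31.1% lower. The 2 lower were Col1a2 and Col3a1, the latter from 1030 ± 5.16 to 731 ± 4.32 CPM. At the level of mRNA, 3 of the 9 surface markers went against the label. Nt5e, Thy1 and Alcam were at or close to the smallest signal at this depth in most samples, in the control MSCs as well.

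The promoters of Cd44, Mcam and Pdgfra are shown first, because these genes had the 3 largest changes against control MSCs among the markers counted well above the edge of detection. Each stretch lies before the RefSeq transcription start in GRCm38.p6 and is written 5′ to 3′ on the strand of the gene, in lower case, with capitals where a searched motif lay. The Cd44 stretch is chr2:102901666-102901915 on the minus strand, the Pdgfra stretch is chr5:75152001-75152250 on the plus strand, both of 250 bases, and the Mcam stretch is the 30 bases chr9:44134618-44134647 on the plus strand. The Cd44 and Pdgfra stretches hold no annotated exon. The Mcam stretch lies inside the Mcam gene as annotated by GENCODE, which begins farther upstream, at 44134469.
Cd44: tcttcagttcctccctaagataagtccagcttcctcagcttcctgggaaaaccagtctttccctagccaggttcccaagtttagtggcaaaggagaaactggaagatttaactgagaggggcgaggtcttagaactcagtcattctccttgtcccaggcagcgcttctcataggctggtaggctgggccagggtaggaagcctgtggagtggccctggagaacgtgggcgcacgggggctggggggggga
Pdgfra: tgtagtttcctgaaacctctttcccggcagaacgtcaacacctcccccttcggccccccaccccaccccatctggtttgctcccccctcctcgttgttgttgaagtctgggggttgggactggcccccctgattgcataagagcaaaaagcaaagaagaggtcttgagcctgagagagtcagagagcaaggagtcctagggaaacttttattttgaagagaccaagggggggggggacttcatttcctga
Mcam: ccCCGCCCcccTGACGTCAgcccccgacag

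The capitals in Mcam mark a GC box, read as GGGCGG on the minus strand, and the palindromic cyclic AMP response element (CRE) TGACGTCA, which did not overlap each other. In all, 5 motifs were searched on both strands in the 250 bases before each start: the TATA box TATAAA, the GC box GGGCGG, the AP-1 site TGACTCA, the CRE TGACGTCA and a GAS site TTCNNNGAA. Among the 32851 promoters of the table, 12.4%, 32.7%, 4.46%, 1.55% and 7.02% held them, in that order. None of the 5 was written in the Cd44 and Pdgfra windows, nor in that of Eng. Nt5e, Alcam and Mcam held GC boxes, and Mcam alone of the 6 genes with an entry held the CRE letters. By base composition these genes fell into the same pair of sets, and the split coincided with where the windows began. Those of Nt5e, Alcam and Mcam began within an annotated exon, and how much of each lay in exons was not measured. Those of Eng, Cd44 and Pdgfra were free of exons over all 250 bases. Sequence of promoters and of transcribed exons can therefore not be told apart here. The GC content was 73.6% for Mcam, 72.0% for Nt5e and 69.2% for Alcam, against 62.4% for Eng, 56.4% for Cd44 and 54.4% for Pdgfra, and the median over all promoters was 52.4%. Genes of both sets rose after treatment, as described next. Thy1, Ly6a and Pdgfrb had no entry.

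In control MSCs the 9 mRNAs differed by more than 3 orders of magnitude per length of exon. On the FPKM scale, the CPM divided by the exon length in kilobases, Pdgfrb was highest with 71.0 ± 3.89 (SD, n = 4), followed by Ly6a with 29.2 ± 1.78, Cd44 with 25.9 ± 0.960 and Pdgfra with 24.7 ± 0.962. The sample ranges of Cd44 and Pdgfra overlapped, and their order turned when the longest annotated transcript was used as length. Mcam had 7.07 ± 0.497 FPKM and Eng had 2.32 ± 0.227. These 6 genes were above 1 FPKM. With all annotated exons as length, each pair of neighbours among them other than Cd44 and Pdgfra kept separate sample ranges. With the longest transcripts the ranges of Ly6a and Pdgfra would overlap. Thy1, Nt5e and Alcam followed with means of 0.0890, 0.0626 and 0.0451 FPKM and overlapping ranges, more than 20 times below Eng. In A1 MSCs the order was Pdgfrb, Cd44, Ly6a, Mcam, Pdgfra and Eng. There Cd44 had 67.6 ± 2.09 FPKM and Pdgfrb 70.6 ± 1.64, with overlapping ranges, and those of Mcam and Pdgfra overlapped as well. In A1-OVA MSCs the order of these 6 was the same, and no neighbours among them overlapped. Both orders depend on the length used. The longest transcript of Cd44 has 5614 bases against 6776 for all its exons. For Pdgfrb these are 5423 and 5478, and with the longest transcripts Cd44 would come before Pdgfrb in both treated groups.

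**Figure D1:**
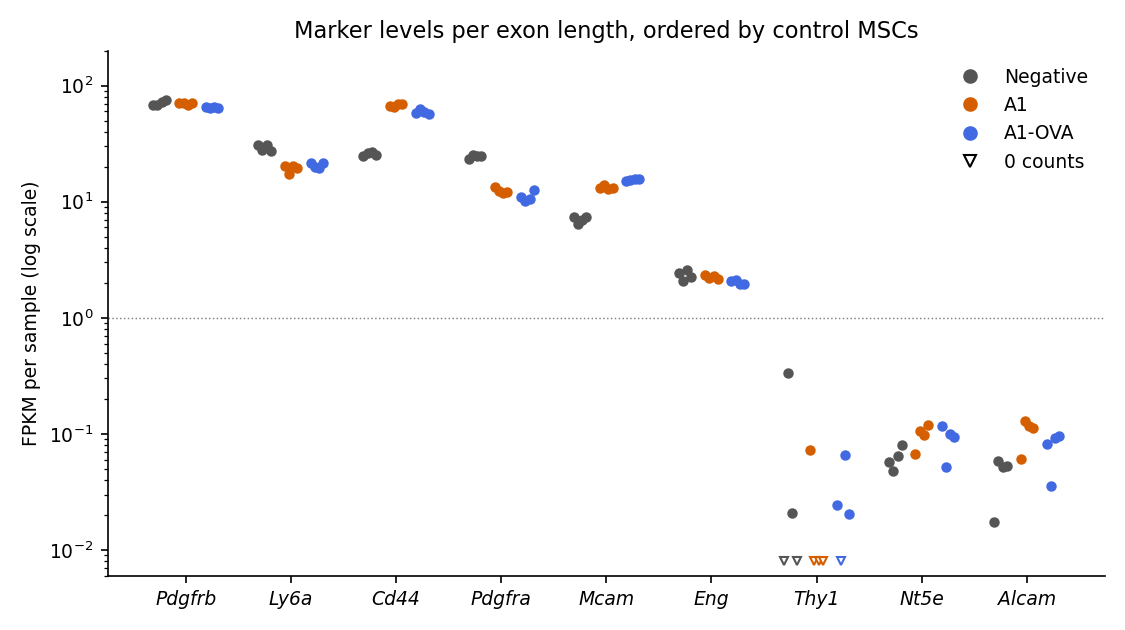
Level of each marker mRNA per exon length (FPKM, log axis) in each of the 12 samples, ordered by the control MSCs, with open triangles at the bottom for samples with 0 counts. 6 genes lie above the dotted line at 1 FPKM and 3 lie below it in every sample, and Cd44 reaches the level of Pdgfrb in A1 MSCs.

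Of the 9 genes, 8 had enough counts for a test and Thy1 did not. Between A1 and control MSCs, 5 of the 8 differed at an adjusted p under 0.05 by edgeR's quasi-likelihood test. Over all 11314 genes tested the share called was 62.7%, so that this count is close to the background. Cd44, Alcam and Mcam were higher, where 31.7% of all genes were called higher, and Pdgfra and Ly6a were lower, where 31.1% were. All 5 also changed by at least 0.5 on the log2 scale, against a background of 21% (9.41% higher and 11.6% lower). The samples of both groups did not overlap for these 5, as for 54.4% of all genes. The median absolute log2 fold change was 0.77 over the 8 markers and 0.23 over all genes.

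Between A1-OVA and control MSCs, which share the same 4 control samples with the first comparison, 5 of 8 were called against a background of 57.6%. Cd44 and Mcam were higher (29.7% of all genes) and Pdgfra, Ly6a and Pdgfrb were lower (27.9%). Of these, Cd44, Mcam and Pdgfra reached a log2 change of 0.5, where the background was 17.7% (8.92% higher and 8.79% lower). The same 5 genes had groups that did not overlap, against 49.4% of all genes. The median absolute change was 0.62, and 0.20 over all genes. Between A1-OVA and A1 MSCs 4 of 8 were called against a background of 12.9%. Mcam was higher in A1-OVA (6.05% of all genes) and Cd44, Pdgfra and Pdgfrb were lower (6.81%). None of the 8 was called with a log2 difference of 0.5, where the background was 1.2% (0.769% higher and 0.433% lower). Groups did not overlap for Mcam, Cd44, Pdgfrb and Eng, 4 of 8, against 18.1% of all genes. The median absolute difference was 0.16, and 0.09 over all genes.

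**Figure D2:**
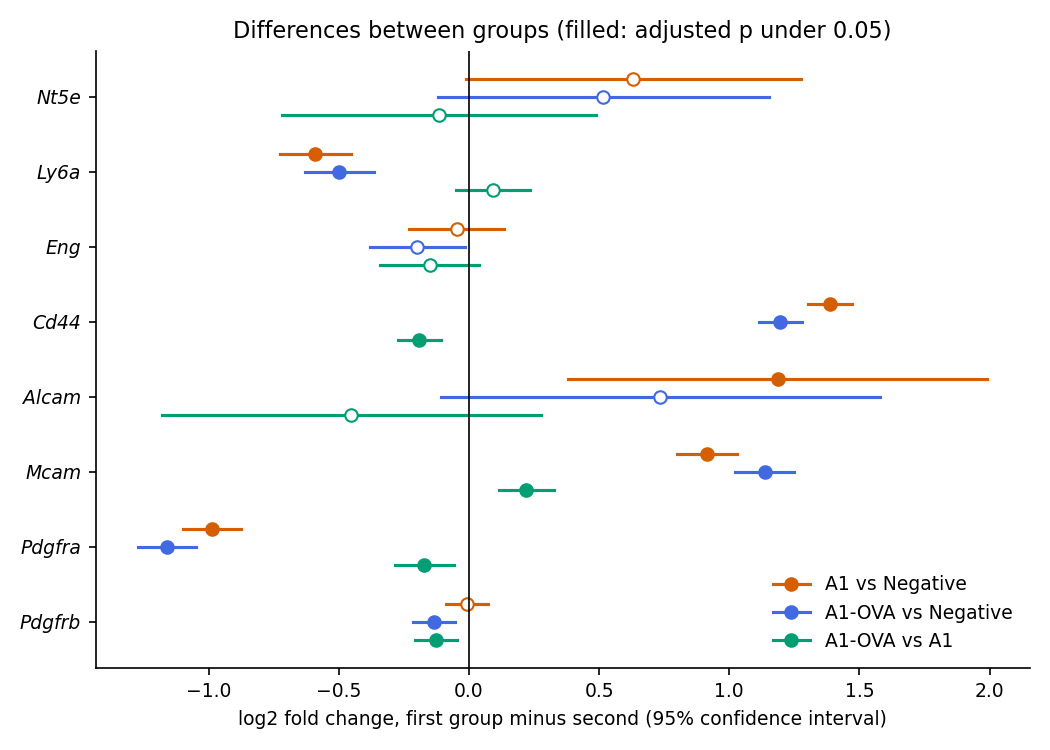
Log2 fold changes of the 8 tested markers with their 95% confidence intervals, for A1 minus Negative, A1-OVA minus Negative and A1-OVA minus A1, with filled points for an adjusted p under 0.05. Cd44 and Mcam lie to the right and Pdgfra and Ly6a to the left of 0 in both comparisons with controls, and the intervals of Nt5e and Alcam are the widest.

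Cd44 had the largest well-measured rise. The gene encodes the hyaluronan receptor and lies at chr2:102811141-102901665 on the minus strand of GRCm38. Its level was 169, 177, 183 and 171 CPM in the 4 control samples, 450, 443, 470 and 470 in A1 MSCs, and 398, 423, 401 and 385 in A1-OVA MSCs. Every treated sample was above every control sample, and all A1-OVA samples were below all A1 samples. Cd44 rose 2.62-fold with A1 (95% interval 2.47 to 2.77, adjusted p = 2.37e-17 by edgeR's quasi-likelihood test) and 2.29-fold with A1-OVA (2.16 to 2.43, adjusted p = 2.74e-16). The difference between the treatments was -0.19 ± 0.04 (SE) on the log2 scale, with an adjusted p of 0.00254 by the same test. The CRE and AP-1 letters were not written in the Cd44 window printed above.

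Mcam, which encodes the adhesion molecule CD146, rose in both treatments and further with OVA. It lies at chr9:44134469-44142727 on the plus strand. The control samples had 24.9, 21.4, 23.5 and 24.95 CPM, the A1 samples 43.9, 46.9, 43.2 and 44.4, and the A1-OVA samples 50.4, 51.5, 53.0 and 52.9. The 3 groups did not overlap. The rise was 1.89-fold with A1 (1.74 to 2.04, adjusted p = 4.70e-12 by edgeR's quasi-likelihood test) and 2.2-fold with A1-OVA (2.03 to 2.38, adjusted p = 9.85e-14). A1-OVA exceeded A1 by 0.22 ± 0.05 on the log2 scale (adjusted p = 0.00663 by the same test), the opposite direction to Cd44. Genes of mural and smooth muscle cells, which can also carry CD146, moved in both directions. Of 9 such genes 5 were tested, and Acta2, Tagln and Cnn1 rose with A1, Rgs5 fell and Des was not called. Over all genes tested 31.7% were called higher and 31.1% lower. None of the 5 was called between A1-OVA and A1 MSCs, where Mcam rose. The summed level of the 9 was 2289 to 2613 CPM in control, 4741 to 4983 in A1 and 4960 to 5212 in A1-OVA MSCs. It was almost wholly Acta2 (2248 ± 127 CPM in control and 4322 ± 93.4 in A1 MSCs). The smooth muscle myosin gene Myh11 was not tested and had 0 to 3 counts in control, 2 to 4 in A1 and 5 to 7 in A1-OVA MSCs. At these few counts its A1-OVA samples lay above all others, as those of Mcam did. The pericyte gene Kcnj8 was at 0 in every sample. Notch3 held 7 to 14 counts in control, 1 to 5 in A1 and 2 to 6 in A1-OVA MSCs. The part of the mural and smooth muscle genes in the Mcam result was not tested. In bulk samples a change in the number of cells of a type and in the RNA per cell cannot be told apart.

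Alcam, the gene of CD166 at chr16:52248996-52454074 on the minus strand, was counted at the edge of detection. The control samples held 2, 7, 6 and 6 counts, the A1 samples 6, 12, 11 and 11, and the A1-OVA samples 8, 4, 10 and 11. After scaling, the highest control sample had 0.414 CPM and the lowest A1 sample 0.434, so that these groups were separate by a small margin, while the A1-OVA samples overlapped both. The log2 fold change with A1 was 1.19 ± 0.39 (adjusted p = 0.0111 by edgeR's quasi-likelihood test) and with A1-OVA 0.73 ± 0.41 (adjusted p = 0.128). The difference between the treatments was -0.45 with a 95% interval of -1.18 to 0.28, which holds a wide range of values.

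Pdgfra had the largest fall. It encodes the PDGF receptor α and lies at chr5:75152292-75198215 on the plus strand. The level was 233, 256, 250 and 250 CPM in control MSCs, 133, 124, 120 and 121 in A1 MSCs, and 110, 101, 106 and 126 in A1-OVA MSCs. All treated samples were below all controls, and the treated groups overlapped through A1-OVA replicate 4. Pdgfra was 1.98-fold lower with A1 (log2 fold change -0.99 ± 0.05, adjusted p = 7.10e-13 by edgeR's quasi-likelihood test) and 2.23-fold lower with A1-OVA (-1.16 ± 0.05, adjusted p = 5.91e-14). The treatments differed by -0.17 ± 0.06 (adjusted p = 0.0448 by the same test). This last call was lost when any of 9 single samples was left out, among them A1 replicate 1 (adjusted p = 0.149) and A1-OVA replicate 2 (adjusted p = 0.146). The antisense gene Gm42802 shares 456 exonic bases with Pdgfra and had 0 to 2 counts.

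Pdgfrb, the gene of the PDGF receptor β at chr18:61045150-61085061 on the plus strand, moved little. It had 372, 370, 400 and 413 CPM in control, 392, 389, 373 and 392 in A1, and 357, 353, 357 and 349 in A1-OVA MSCs. The A1 samples lay inside the range of the controls, while all A1-OVA samples were below both groups. With A1 the log2 fold change was -0.01 (95% interval -0.09 to 0.07, adjusted p = 0.867 by edgeR's quasi-likelihood test), an interval that leaves out changes of the size seen for Pdgfra. With A1-OVA it fell by 0.14 ± 0.04 (adjusted p = 0.00519), and A1-OVA was 0.13 ± 0.04 lower than A1 (adjusted p = 0.0356 by the same test, a call lost without any 1 of 6 samples, with adjusted p up to 0.0926 without A1-OVA replicate 4). The ratio of Pdgfra to Pdgfrb counts, which needs no scaling between samples, was 0.604 to 0.691 in control, 0.309 to 0.341 in A1 and 0.286 to 0.360 in A1-OVA MSCs.

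**Figure D3:**
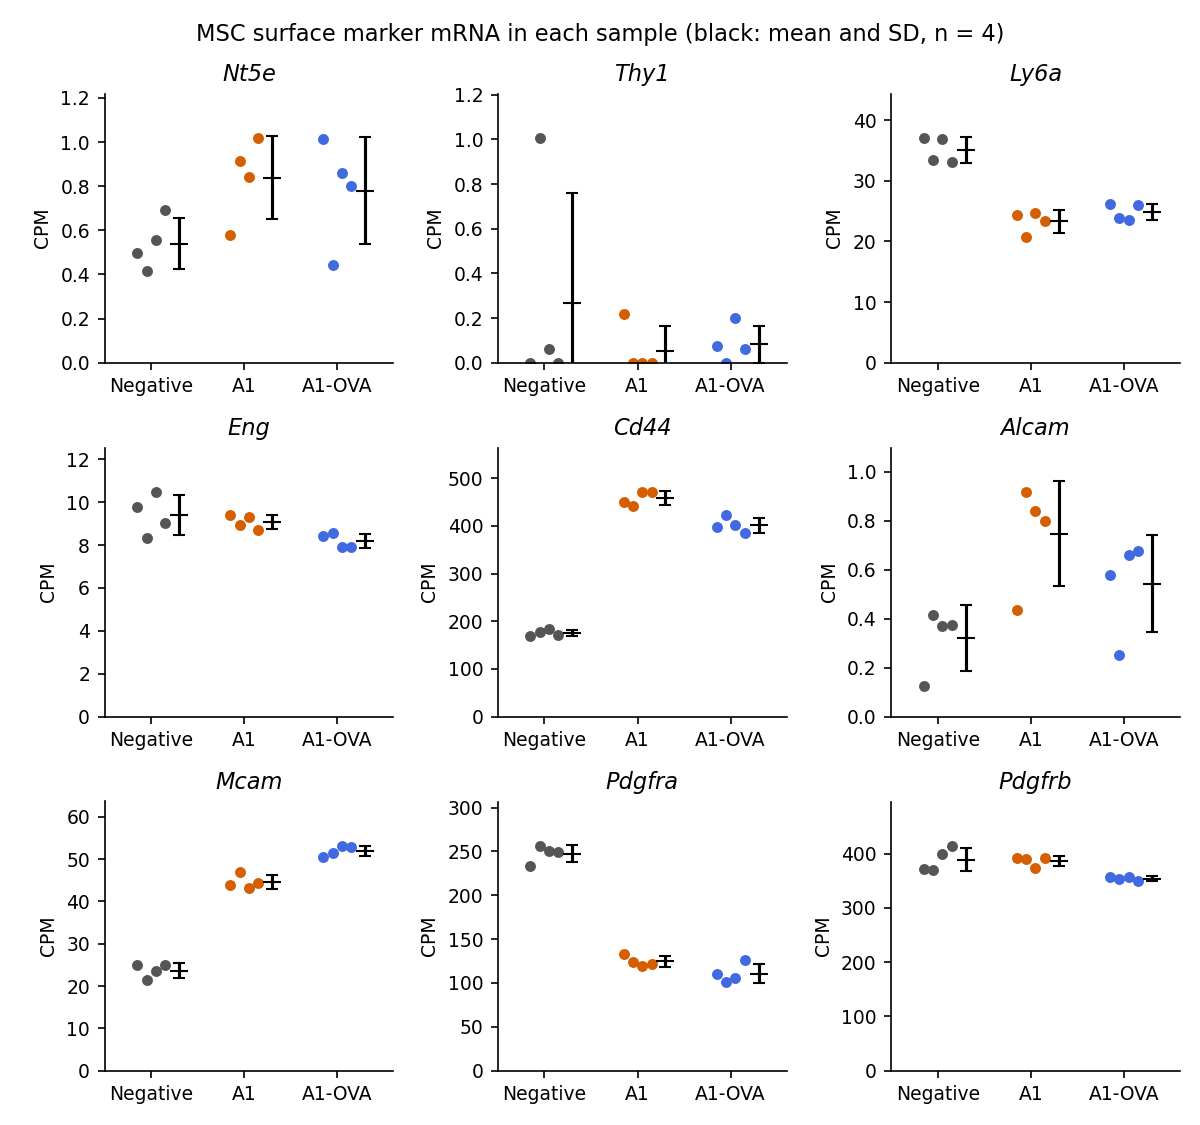
Level of each of the 9 marker mRNAs (CPM, linear axes from 0) in each sample of the 3 groups, with the mean and SD of 4 samples in black. Cd44 and Mcam rise, Pdgfra and Ly6a fall, the A1 samples of Pdgfrb and Eng lie within the control range, and the single high Thy1 point is 1 control sample.

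Ly6a encodes Sca-1 and lies at chr15:74994877-74998031 on the minus strand. It had 37.0, 33.5, 36.9 and 33.0 CPM in control, 24.4, 20.7, 24.7 and 23.4 in A1, and 26.2, 23.9, 23.6 and 25.9 in A1-OVA MSCs. The controls were above all treated samples, and the treated groups overlapped. Ly6a was 1.51-fold lower with A1 (log2 fold change -0.59 ± 0.07, adjusted p = 8.77e-08 by edgeR's quasi-likelihood test) and 1.41-fold lower with A1-OVA (-0.50 ± 0.06, adjusted p = 8.49e-07). The difference between the treatments was 0.09 with a 95% interval of -0.05 to 0.24 (adjusted p = 0.406 by the same test). Its count is uncertain as a measure of 1 gene. Of the 1297 distinct words of 50 bases in its transcripts, 246 (19%) are also written in transcripts of Ly6c1, Ly6i or I830127L07Rik, and reads from such words could be lost or assigned to a relative. For the other 8 genes that share was at most 0.128%.

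The marrow reticular stroma genes and part of the adipocyte genes fell together with Pdgfra and Ly6a. Of all genes tested, 31.1% were called lower with A1 and 27.9% with A1-OVA. The shares called higher were 31.7% and 29.7%. All 4 tested genes of the 5 for reticular stroma fell with A1, among them Cxcl12, the chemokine that retains blood stem cells, from 3910 ± 130 to 1514 ± 63.6 CPM, and Kitl, the stem cell factor, from 991 ± 55.1 to 213 ± 11.5 CPM. Ebf3 fell least of the 4, by 0.30 on the log2 scale. The summed level of the 5 was 5022 to 5413 CPM in control, 1822 to 1970 in A1 and 2032 to 2173 in A1-OVA MSCs. The defining receptor Lepr had only 6 to 16 counts. Of the 7 adipocyte genes 6 were tested, and 4 fell and none rose with A1, while Pparg and Fabp4 were not called (log2 fold changes of -0.01 and 0.02). With A1-OVA 4 fell as well, and Fabp4 rose from 63.2 ± 3.50 to 71.3 ± 5.01 CPM (adjusted p = 0.0110 by edgeR's quasi-likelihood test). The summed adipocyte level went from 2002 to 2246 CPM in control MSCs to 800 to 824 in A1 and 865 to 943 in A1-OVA MSCs, led by the lipoprotein lipase gene Lpl, which is not restricted to adipocytes. The osteoblast sum was 1258 to 1351, 3144 to 3475 and 2088 to 2502 CPM in the 3 groups, which was almost wholly Spp1. Of the 7 osteoblast genes 4 were tested, and 2 rose and 2 fell with each treatment, those that fell being Runx2 (from 125 ± 7.35 to 97.8 ± 4.22 CPM with A1) and Alpl (from 15.3 ± 0.348 to 9.12 ± 1.23 CPM). The part of these genes in the marker results was not tested.

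Eng, the gene of endoglin at chr2:32646595-32682669 on the plus strand, was not called in any comparison. It had 9.78, 8.33, 10.5 and 9.03 CPM in control, 9.40, 8.93, 9.31 and 8.71 in A1, and 8.41, 8.55, 7.92 and 7.89 in A1-OVA MSCs. The A1 samples lay within the control range, and the A1-OVA samples were below all A1 samples but overlapped the controls. The log2 fold change was -0.05 with A1 (95% interval -0.23 to 0.14, adjusted p = 0.662 by edgeR's quasi-likelihood test) and -0.20 with A1-OVA (-0.38 to -0.02, adjusted p = 0.0596). Scaling by total counts brought the latter past the threshold (-0.26, adjusted p = 0.0145), as did leaving out Negative replicate 2 (-0.25, adjusted p = 0.0202 by the same test). Eng shares 61 exonic bases with Fpgs on the opposite strand, and the libraries and counting were strand-specific.

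Nt5e, which encodes CD73 at chr9:88327197-88372092 on the plus strand, held 8, 7, 9 and 11 counts in control, 8, 12, 11 and 14 in A1, and 14, 7, 13 and 13 in A1-OVA MSCs. The groups overlapped in every comparison. The log2 fold change was 0.63 ± 0.31 with A1 (95% interval -0.01 to 1.27, adjusted p = 0.0811 by edgeR's quasi-likelihood test) and 0.52 ± 0.31 with A1-OVA (-0.12 to 1.15, adjusted p = 0.157), and neither was called. A change of the size seen for Mcam lies inside both intervals. Without A1 replicate 1 the first difference passed the threshold (0.77, adjusted p = 0.0447).

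Thy1, the gene of CD90 at chr9:44043384-44048579 on the plus strand, was not tested. It had 0, 17, 1 and 0 counts in control, 3, 0, 0 and 0 in A1, and 1, 0, 3 and 1 in A1-OVA MSCs. In 11 of the 12 samples it was at or under 3 counts, which was taken as not detectable, and no difference between the groups was detectable at this depth. Negative replicate 2 alone had more. That sample also had 7 counts of the T cell gene Cd3d, which had 0 to 2 in all others, and Cd3e and Cd8a were at 0 in every sample. Whether the same source gave both was not tested.

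The make-up of the marker panel changed more than its total. All 9 genes together took 0.0861% to 0.0920% of the counts in control, 0.0989% to 0.102% in A1 and 0.0913% to 0.0929% in A1-OVA MSCs. Within that sum Cd44 held 19.9% ± 0.633 in control, 43.7% ± 1.18 in A1 and 42.1% ± 1.38 in A1-OVA MSCs (SD, n = 4). Pdgfra went the other way, with 28.1% ± 0.927, 11.9% ± 0.573 and 11.6% ± 1.17. Pdgfrb was the largest part in control MSCs with 44.1%, and Cd44 was in both treated groups. These are shares of counts, which take no account of length. Per length of all annotated exons, Pdgfrb stayed highest by mean in all 3 groups.

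**Figure D4:**
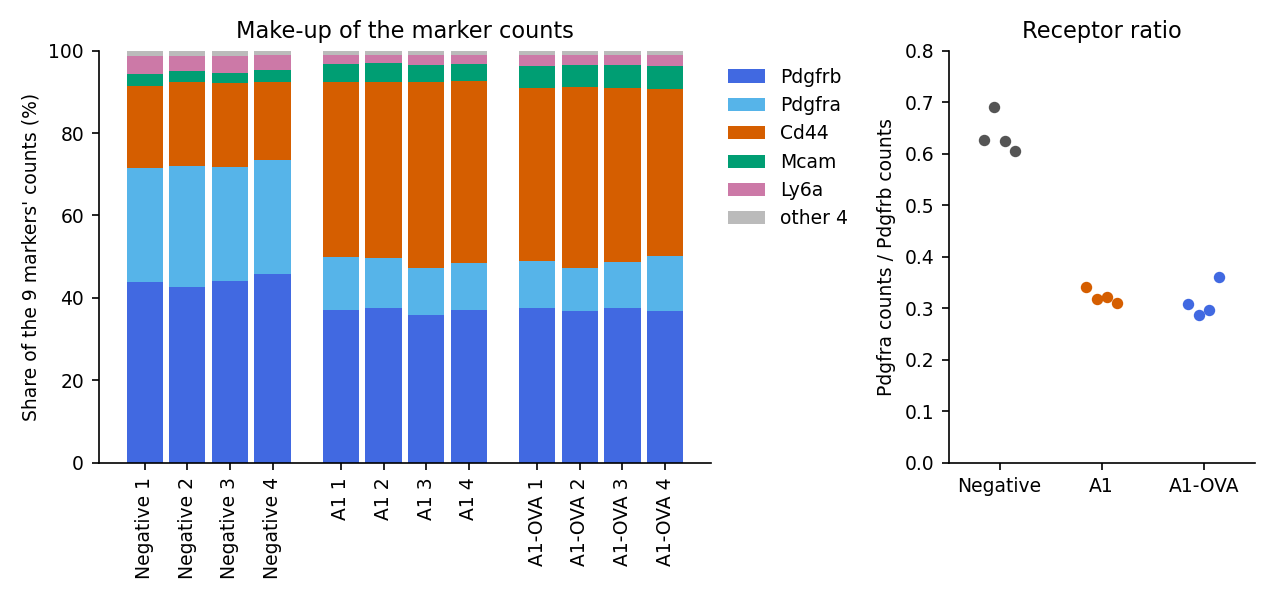
Left, share of each marker in the summed counts of the 9 genes (percent) in each sample, with Nt5e, Thy1, Eng and Alcam joined as the other 4. Right, ratio of Pdgfra to Pdgfrb counts per sample, which lies above 0.6 in all controls and below 0.4 in all treated samples.

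The partners of these markers were read from lists of genes by function. The counts below are for A1 against control MSCs at an adjusted p under 0.05 by edgeR's quasi-likelihood test, where 31.7% of all genes tested were called higher and 31.1% lower. The counts are read against these shares, and a count near them is no result about the list. For the PDGF system, all 18 genes of ligands and receptor signalling were tested, and 9 rose, 5 fell and 4 were not called, with a median log2 fold change of 0.13. The ligand gene Pdgfa rose from 41.3 ± 1.89 to 99.3 ± 3.67 CPM, and Pdgfd, a ligand of the β receptor, fell from 78.1 ± 5.02 to 39.7 ± 1.35. Plat, the protease that can activate PDGF-CC, rose by 1.14 on the log2 scale, and Pik3r1, a regulatory subunit of the kinase PI3K, fell by 1.03. Pdgfra is the receptor for PDGF-AA, so the ligand and its receptor mRNA moved in opposite directions.

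Of the 21 genes around hyaluronan and CD44, 20 were found and 13 tested, of which 5 rose, 4 fell and 4 were not called. The hyaluronan synthase Has2 rose from 5.05 ± 0.265 to 30.4 ± 2.45 CPM, the hyaluronan-degrading Cemip from 3.01 ± 0.415 to 11.7 ± 0.783 and osteopontin (Spp1), a CD44 ligand, from 1148 ± 40.3 to 3191 ± 140. The hyaluronan-binding gene Tnfaip6 fell by 1.19 on the log2 scale but had about 1 CPM. The median over the 13 was 0.03. Among the partners of CD166 and CD146, 6 of 9 were tested, 3 rose, 1 fell and 2 were not called. The sheddase Adam17 fell from 136 ± 4.77 to 89.3 ± 2.24 CPM, while Lgals1, Wnt5a and Sdcbp rose by 0.31, 0.23 and 0.10 on the log2 scale.

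Of the 12 genes of the adenosine axis around CD73, 8 were tested, with 4 up, 1 down and 3 not called and a median of 0.51. The 1 down was Alpl, whose values are given above with the osteoblast genes. The nucleoside transporter Slc29a1 rose from 235 ± 13.5 to 434 ± 12.4 CPM and its relative Slc29a2 from 1.17 ± 0.371 to 4.54 ± 0.954. Enpp1, an ecto-enzyme that makes AMP from ATP, rose from 19.3 ± 1.04 to 63.1 ± 1.25. The adenosine receptor gene Adora2a rose too, at under 1 CPM. Of the 10 genes that attach and remodel GPI anchors all were tested, 1 rose, 4 fell and 5 were not called, with changes of at most 0.51. Those that fell were Mppe1, Pigk, Pgap2 and Pgap1. In the Ly6 family other than Ly6a, 3 of 16 were tested and 9 were at or under 3 counts in every sample. Ly6c1 fell by 0.68, close to Ly6a with which it shares sequence, Lynx1 fell by 0.26, and Ly6e rose by 0.31.

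In the endoglin complex 10 of 14 genes were tested, of which 4 rose, 5 fell and 1 was not called. The co-receptor Tgfbr3 (betaglycan) fell from 200 ± 8.93 to 119 ± 3.17 CPM and the type II receptor Acvr2a by 0.42 on the log2 scale, while Mmp14, the protease that sheds endoglin, rose by 0.40 and Tgfbr1 by 0.27. Of 22 other surface proteins used for MSCs 15 were tested, with 7 up, 5 down and 3 not called. The integrin subunits Itga5 and Itga6 rose from 177 ± 13.0 to 437 ± 22.4 and from 20.3 ± 2.06 to 44.9 ± 2.87 CPM, whereas Itga1 fell from 41.6 ± 3.30 to 19.1 ± 0.830 and the peptidase gene Mme (CD10) from 398 ± 24.3 to 157 ± 4.41. As among the 9 markers, both directions occurred in every list.

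**Figure D5:**
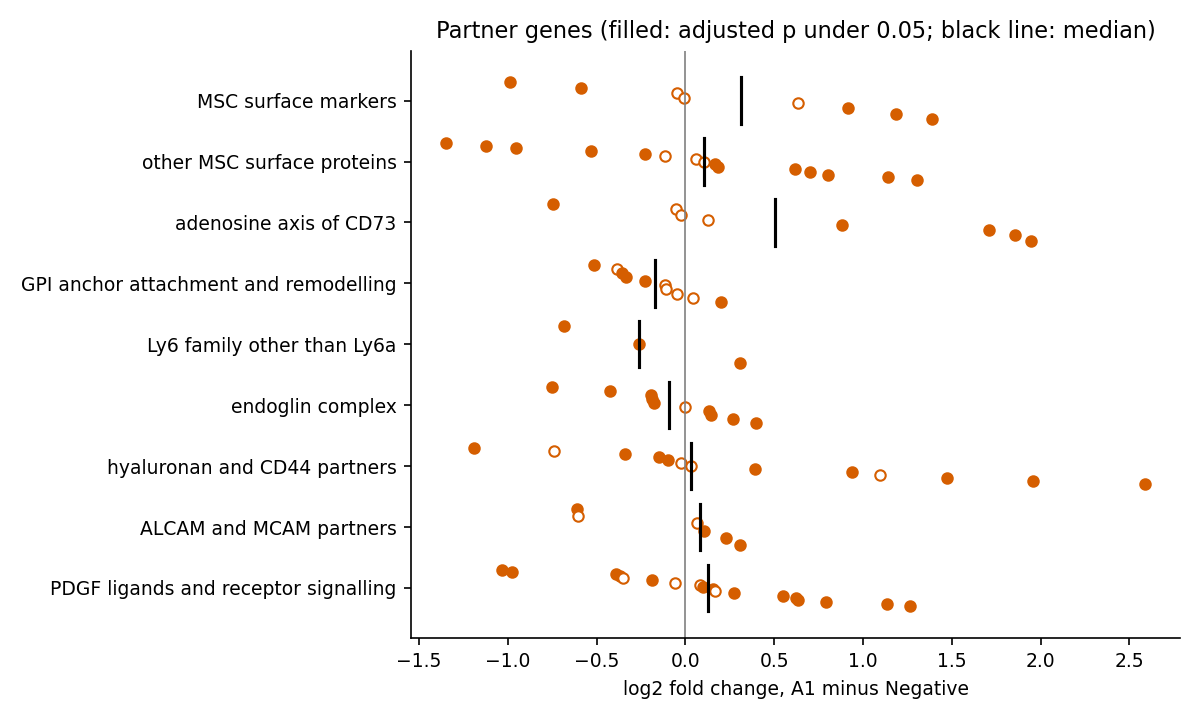
Log2 fold changes between A1 and control MSCs of the tested genes of each list (filled, adjusted p under 0.05), with the median of each list as a black line. Each list holds genes on both sides of 0, and the median of the adenosine axis, 0.51, lies farthest to the right.

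The genes most like each marker called with a log2 change of at least 0.5, which leaves out Pdgfrb, were named by the smallest root mean square difference of their 12 centred log2 CPM values, over 10405 genes whose mean log2 CPM was 1 or higher. For Cd44 these were Tfrc, the transferrin receptor gene (0.07), and Nbl1 (0.08), where the median over all genes was 0.62. For Mcam they were the cytoskeletal actin gene Actg1 and Fam20c (both 0.08, median 0.50). For Pdgfra they were Ebf1, a transcription factor of stromal and B cells, and Fam102b (both 0.08, median 0.53). For Ly6a they were Cd99l2 (0.05) and Mgst1 (0.06, median 0.30). For Alcam the nearest genes, Apoe and Lmln, were at 0.32 and 0.35, closer to the median of 0.58. This measure is a description over 12 samples that fall into groups.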

How the data were processed

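RNA was measured in 12 samples of mouse bone marrow MSCs, grouped by their titles. The authors prepared strand-specific poly(A) libraries, aligned paired-end reads to GRCm38 with STAR 2.7 and counted them with featureCounts 2.0, and the deposited values are raw counts per Ensembl gene. Symbols, biotypes and coordinates came from GENCODE M21, an earlier release than the authors' Ensembl 102, which held 99.53% of the 55487 identifiers. Protein-coding genes (21974) were filtered with filterByExpr, scaled by TMM and tested in edgeR 4.0.16 (R 4.3.3) by its quasi-likelihood test over all 12 samples, with Benjamini-Hochberg adjustment across the 11314 genes tested. CPM are TMM-scaled, and FPKM divide them by the union of annotated exons. Log2 fold changes are edgeR's estimates. The steps were tested on simulated data. Counts of 3 or fewer were taken as not detectable. No 2 samples of a group agreed within sampling noise (chi-square per degree of freedom 1.92 to 6.87). From each list of partner genes the 4 called genes with the largest absolute change with A1 were named, and all 9 markers and the 2 most similar genes are given for each marker called with an absolute log2 change of at least 0.5 in any comparison. The markers and lists were chosen with earlier results of these data known. DESeq2 1.42.0, other scalings, filters and thresholds, a replicate block and leaving out each sample were the alternatives. RefSeq supplied the promoters. The study stained CD44, CD45, CD73 and CD90 on its MSCs by flow cytometry. Those stainings and the animal experiments were not analysed here, and the mRNA levels do not measure the surface proteins.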

Additional observations from a re-analysis of the deposited data

Results flagged for a closer look

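In 120 groups of 4 samples, formed by the 9 markers and 31 named partner genes, the highest or lowest sample stood apart in 10 by a gap to its neighbour that took more of the group's range than Dixon's 95% critical value allows. Chance gives about 1 in 20 groups where values are normally distributed. Small counts with ties, such as those of Thy1 and Alcam, are not, so the 10 cannot be read against that rate. Among the markers, Thy1 did so in control MSCs (ratio 0.938, replicate 2 with 17 counts against 0 to 1) and in A1 MSCs (1.00, 3 counts against 0). Alcam did so in control MSCs (0.854, replicate 1 with 2 counts against 6 to 7), and Pdgfrb in A1 MSCs (0.847, replicate 3 with 373 CPM against 389 to 392). Among the partners the ratio was 0.962 for Mme, 0.834 for Enpp1, 0.894 for Lynx1 and 0.940 for Sdcbp in control MSCs, and 0.880 for Mppe1 and 0.861 for Ly6c1 in A1-OVA MSCs. Mme was highest in Negative replicate 2 (435 CPM against 385 to 387), the sample with the Thy1 counts.

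Of these 40 genes, Thy1 was not tested. For 17 of the others the responses to A1 with and without OVA differed, by edgeR's quasi-likelihood test of A1-OVA against A1. Over all genes tested the share called was 12.9%. The 31 partners were named for a large change with A1, and the same A1 samples enter this test. That choice favours differences against the change with A1, so the count and directions below are no result about the partners. The log2 differences of the markers were -0.19 for Cd44, 0.22 for Mcam, -0.17 for Pdgfra and -0.13 for Pdgfrb, the last 2 being lost under several alternatives. Cemip (0.29), Itga5 (0.28) and Pdgfa (0.18) were higher with OVA, adding to their rise with A1. Mme (0.24), Itga1 (0.42), Pgap1 (0.24) and Pik3r1 (0.17) were also higher with OVA, against their fall with A1. Spp1 (-0.53), Plat (-0.63), Has2 (-0.48), Enpp1 (-0.40), Slc29a1 (-0.28) and Wnt5a (-0.24) were lower with OVA, against their rise.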

How the results depend on the processing

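Of the log2 fold changes of single markers recomputed under the alternatives, 456 kept their direction and their side of the threshold, 28 lost a call, 6 gained one and 5 changed sign. The rises of Cd44 and Mcam and the falls of Pdgfra and Ly6a against control MSCs kept both under all alternatives except a required log2 change of at least 1. With that threshold 2 markers were called between A1 and control MSCs (Cd44 and Alcam), 3 between A1-OVA and control MSCs (Cd44, Pdgfra and Mcam) and 0 between A1-OVA and A1 MSCs. With total counts as the scaling 2 were called between A1-OVA and A1 MSCs, Cd44 and Mcam. Total counts also moved the split over all genes, from 3582 higher and 3516 lower to 2681 and 4493 for A1, from 3358 and 3160 to 2616 and 4097 for A1-OVA, and from 685 and 770 to 839 and 616 between the treatments, but no marker changed sign under it.

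Leaving out each sample in turn gave 5 to 6 called markers in both comparisons with control MSCs, 5 to 6 and 3 to 4 with a change of at least 0.5, and 2 to 4 between the treatments, with 0 at 0.5 throughout. The 2 calls that remained between the treatments were Cd44 and Mcam, without A1 replicate 1, 2 or 4 or A1-OVA replicate 2 or 3. The sign turned only for uncalled values near 0. Eng with A1 ranged from -0.10 to 0.00776 and turned without Negative replicate 3. Pdgfrb with A1 ranged from -0.0315 to 0.0223 and turned without Negative replicate 3 (0.00548), Negative replicate 4 and A1 replicate 3 (0.00167). Nt5e between the treatments ranged from -0.26 to 0.0819 and turned without A1-OVA replicate 2. Alcam with A1-OVA passed the threshold without A1-OVA replicate 2 (adjusted p = 0.0420 by edgeR's quasi-likelihood test). The causes were not tested. Nt5e and Alcam gave no value with at least 10 counts required in every sample, nor did Alcam when only the groups compared were fitted, since the filters removed them. Eng with A1-OVA also passed it with upper-quartile scaling and with all genes of the table.

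Samples of the same number deviated together only weakly (mean r 0.02 over 12 pairs), so the numbers were not taken to pair the samples. With a replicate block the called markers were 5, 5 and 4 in the 3 comparisons, and no call changed. At 7 to 14 counts of Nt5e and 2 to 12 of Alcam per sample, changes as large as that of Mcam could be missed.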
